A study of Mus musculus with 6 samples.

Results

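The tumour necrosis factor (TNF) superfamily genes were read in epididymal white adipose tissue, the fat pad beside the testis, of mice without Cnot3 in their fat cells. Members were chosen by symbol: gene names beginning Tnfsf, Tnfrsf or Tnfaip with a number, Traf1 to Traf7, and Tnf, Fas, Fasl, Eda2r, Cd40, Cd27, Ltb, Lta, Ltbr and Ngfr. This gave 50 of the 18193 genes that had a probe set naming that gene alone. They were 11 ligands, 25 receptors, 6 TRAF adaptors, 7 genes with Tnfaip symbols (TNF-induced proteins and relatives) and 1 RNA from the strand opposite a ligand gene. Tnfsf12 and Traf3 are not analysed here.

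The study compared 3 CNOT3KO mice with 3 wild-type (WT) mice, all C57BL/6 and 8 weeks of age, with 1 Affymetrix array per mouse. In CNOT3KO mice, a Cre recombinase driven by the adiponectin promoter deletes Cnot3, which encodes a subunit of the CCR4-NOT complex, the main remover of poly(A) tails from mRNA. That promoter is active in fat cells, so the blood vessel, immune and stromal cells of the tissue keep the gene. Whether the WT mice carried a floxed allele or the Cre is not given in the sources used here.

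TNF superfamily ligands are trimers, mostly made at the cell surface and often shed from it, that cluster receptors on the same or a neighbouring cell. Receptors with a death domain can assemble caspase-activating complexes, receptors without one bind TRAF adaptors directly, and decoy receptors bind ligand without passing on a signal. Both routes feed the NF-kB and stress kinase pathways, which in adipose tissue have been studied for their part in inflammation and insulin resistance.

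Signals are linear MAS5 intensities. Differences are log2(signal + 22.5) of CNOT3KO minus WT, tested with limma over the 12769 genes bright enough to test, and a gene was called where the Benjamini-Hochberg adjusted p was under 0.05. The offset understates the change of dim genes. Probe sets differ in brightness for reasons other than RNA level, so no gene's signal is set against another's. Cnot3 itself read 194, 229 and 179 in the CNOT3KO mice, against 305, 293 and 305 in the WT mice, a log2 difference of -0.54 ± 0.14 (SE, n = 3 each; limma adjusted p = 0.0131). All CNOT3KO mice were below all WT mice, and RNA remained in each; where the probes lie relative to the deleted part was not checked. The array medians ranged from 82.1 to 92.9. Of all genes tested 40.1% were called, 23.2% higher and 16.9% lower in CNOT3KO, so a call was common. With each array centred on its median the calls split into 2800 lower and 2318 higher genes, against 2156 lower and 2959 higher without centring.

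The adipose tissue of CNOT3KO and WT mice also differed in markers of other cells. Of 14 macrophage markers 12 were called higher and 1 (Mertk) lower, and their summed signal was 62444 to 91888 in CNOT3KO mice, against 30775 to 38172 in WT mice. Of 12 endothelial markers 11 were called lower, with sums of 5388 to 6574 in CNOT3KO mice and 13438 to 14370 in WT mice. Of 11 adipocyte markers 3 (Lep, Plin4 and Cidec) were called lower, with sums of 162681 to 195342 in CNOT3KO mice and 181178 to 227874 in WT mice. The other lists had 3 higher and 2 lower of 9 progenitor and fibroblast markers, 4 lower of 8 mesothelial, 2 higher and 1 lower of 4 mast cell, 1 higher of 5 each for natural killer and dendritic cells, and none of 2 neutrophil or 3 lymph node and lymphatic markers. No marker was at 0, since the lowest value on any array was 1, so this does not show that a cell type was present. In bulk tissue, fewer cells of a type and less RNA per cell cannot be told apart, and the part of these cells in the results below was not tested.

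Of the 50 members, 36 were bright enough to test. Calls went to 8 members higher and 4 lower in CNOT3KO, 22.2% and 11.1% of those tested, against 23.2% and 16.9% of all genes. The share of members called, 33.3%, was thus no higher than the background of 40.1%. The median log2 difference of the tested members was 0.19, against 0.02 over all genes tested, and the median size was 0.37 against 0.34. Signals of the mice did not overlap between groups for 19 members (11 higher in CNOT3KO, 8 lower), or 52.8%, against 51.7% of all genes. Calls of at least 2-fold were made for 6 members, 5 higher and 1 lower, or 16.7% against a background of 9.82%. Tnfsf13os, Tnfrsf10b and Tnfsf9 passed the filter on dim genes through the CNOT3KO mean and Tnfrsf8 through the WT mean, so these counts do not stand for all 50. Leaving out 1 mouse moved the counts: 5 members were higher and 2 lower without CNOT3KO mouse 1, and 1 was lower without WT mouse 3 and likewise without CNOT3KO mouse 3. Of the 12769 genes tested, 2199 were higher and 1621 lower without CNOT3KO mouse 1. Lower genes numbered 1885 without WT mouse 3 and 1905 without CNOT3KO mouse 3, against 2156 with all mice. Given array weights, 13 members were higher and 7 lower, and 3683 and 2932 of all 12769 genes tested. With only genes above the 60th percentile tested, 19 members remained, and 4 were higher and 2 lower. Of the 9978 genes tested there, 2606 were higher and 1988 lower.

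**Figure D1:**
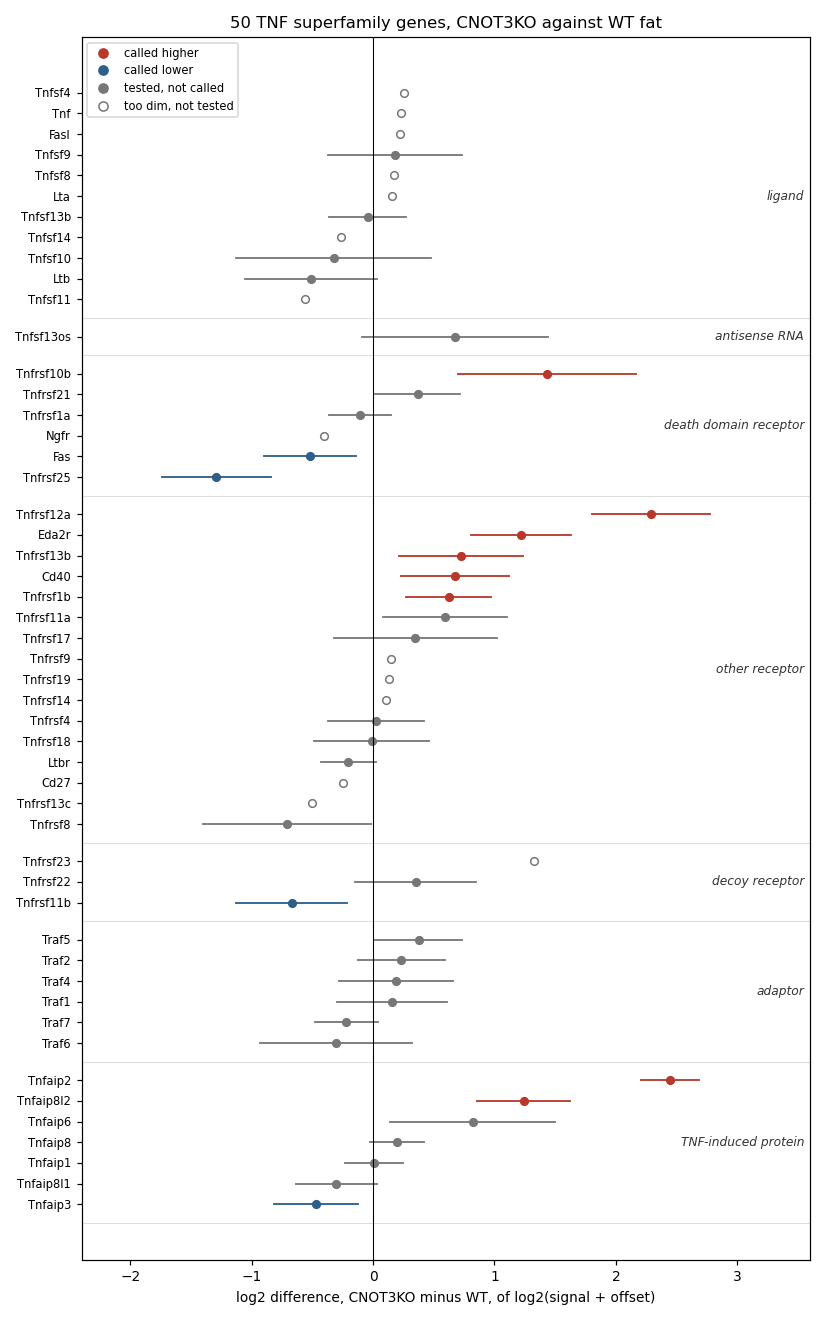
Log2 difference, CNOT3KO minus WT, for the 50 members grouped by role, with 95% confidence intervals from limma (n = 3 mice each); open points are members too dim to test, and red and blue mark those called higher and lower. Tnfaip2 at 2.44 and Tnfrsf12a at 2.29 lie farthest to the right and Tnfrsf25 at -1.29 farthest to the left, and the 6 TRAF adaptors lie between -0.30 and 0.37.

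None of the 4 ligands tested was called by limma, against 40.1% of all genes tested, and the unadjusted p was under 0.05 for 0. Of the 11 ligands 4 were bright enough to test, and 7 were not: Tnf, Lta, Fasl, Tnfsf11, Tnfsf14, Tnfsf4 and Tnfsf8. Tnf, the founding cytokine of the family, read 47.9, 67.2 and 40.2 in CNOT3KO mice, against 26.0, 63.4 and 36.4 in WT mice. The groups overlapped, and with no filter on dim genes its limma adjusted p was 0.597. Lta, which encodes lymphotoxin alpha, read at most 14.3 in CNOT3KO mice and 8.83 in WT mice, and Fasl, the ligand of Fas, 30.9 to 37.5 in CNOT3KO mice and 11.5 to 42.1 in WT mice. Tnfsf11, the osteoclast-inducing ligand RANKL, read 4.57, 4.22 and 1 in CNOT3KO mice, against 6.90, 10.2 and 34.0 in WT mice, too dim for a difference to be measured.

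Of the measured ligands, Tnfsf13b, the B cell survival factor BAFF, read 213, 237 and 225 in CNOT3KO mice, against 237, 210 and 253 in WT mice, a log2 difference of -0.04 with a 95% interval of -0.36 to 0.27 (limma adjusted p = 0.825). Tnfsf10, the death-inducing ligand TRAIL, read 161, 247 and 157 in CNOT3KO mice, against 434, 240 and 123 in WT mice. The WT mice spread more widely than the groups differed (log2 difference -0.32, interval -1.12 to 0.48). Its probe sets disagreed: another gave -0.67 and was called lower (limma adjusted p = 0.032 with every probe set tested), and one more gave 0.19. Ltb, the membrane partner of lymphotoxin alpha, read 87.5, 62.1 and 83.0 in CNOT3KO mice, against 85.6, 115 and 169 in WT mice, -0.51 with an interval of -1.05 to 0.03 (adjusted p = 0.122). Its groups overlapped through WT mouse 1, and without that mouse the value was -0.71 and called. Tnfsf9, a costimulator of T cells, gave 0.18, and Tnfsf13os, named as lying opposite the ligand gene Tnfsf13, gave 0.67 (adjusted p = 0.146), with all CNOT3KO mice above all WT mice.

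Of 25 receptors 18 were tested, with 6 higher and 3 lower (33.3% and 16.7%, against 23.2% and 16.9% of all genes tested). Their median log2 difference was 0.35. The receptors without a death domain that pass on a signal had 5 of 11 higher and none lower (45.5% of those tested, against the background of 23.2%), by limma, and an unadjusted p under 0.05 in the lower direction for 1, Tnfrsf8. Without CNOT3KO mouse 1 the count was 2 of 11 (18.2%, against 17.2% of all genes in that fit), as Cd40, Tnfrsf1b and Tnfrsf13b lost their calls, and without CNOT3KO mouse 2 it was 3 of 11 (27.3% against 20.3%).

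Tnfrsf12a, the receptor Fn14 for the ligand TWEAK, read 1746, 1269 and 1895 in CNOT3KO mice, against 353, 219 and 391 in WT mice. Every CNOT3KO mouse was above every WT mouse, and the mean was 1637 ± 327 in CNOT3KO mice and 321 ± 90.4 in WT mice (SD, n = 3 each). The log2 difference was 2.29 ± 0.22 (SE), 4.89-fold (limma adjusted p = 6.61e-05), and it lay between 1.75 and 2.50 under 18 alternative settings. A second probe set gave 1.75 and was also called higher. Eda2r, the receptor XEDAR for an ectodysplasin isoform, read 181, 168 and 235 in CNOT3KO mice, against 78.1, 65.5 and 67.3 in WT mice. It was 2.33-fold higher (log2 1.22 ± 0.18, adjusted p = 0.000801), again with no overlap between groups.

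The promoter windows of these 2 receptors are shown because they are the called signalling receptors without a death domain that rose at least 2-fold. Each window runs from 250 bases before to 50 after the transcription start, from RefSeq on GRCm38.p6, 5′ to 3′ on the gene's own strand, with capitals marking a TATAAA match. Tnfrsf12a lies on the minus strand at chr17:23677400-23677699, and Eda2r on the minus strand at chrX:97377160-97377459.
Tnfrsf12a: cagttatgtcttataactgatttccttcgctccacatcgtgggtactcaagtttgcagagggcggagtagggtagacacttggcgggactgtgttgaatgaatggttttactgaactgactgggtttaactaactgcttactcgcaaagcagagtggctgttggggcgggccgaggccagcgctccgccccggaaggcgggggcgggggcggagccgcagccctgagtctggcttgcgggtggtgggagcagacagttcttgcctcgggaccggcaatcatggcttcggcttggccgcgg
Eda2r: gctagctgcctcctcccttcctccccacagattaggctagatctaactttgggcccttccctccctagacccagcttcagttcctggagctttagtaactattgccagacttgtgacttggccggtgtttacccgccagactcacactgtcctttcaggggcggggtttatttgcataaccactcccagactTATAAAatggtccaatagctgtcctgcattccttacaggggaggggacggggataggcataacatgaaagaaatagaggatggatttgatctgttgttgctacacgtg
The windows were searched on both strands for TATAAA, for the AP-1 letters TGANTCA and for the NF-kB and p53 half-site consensus. The Tnfrsf12a window held none of the 4, and the Eda2r window held TATAAA, which occurs in 13.6% of all 32851 windows.

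Smaller increases were called for Tnfrsf1b, Cd40 and Tnfrsf13b. Tnfrsf1b, the second TNF receptor, carried mainly by immune and endothelial cells, read 612, 616 and 431 in CNOT3KO mice, against 373, 327 and 339 in WT mice, with no overlap (log2 0.62 ± 0.16, limma adjusted p = 0.0108). CNOT3KO mouse 3, its lowest CNOT3KO mouse, was also the lowest CNOT3KO mouse in summed macrophage markers. That mouse was the highest of its group for Tnfrsf12a, Eda2r and Tnfrsf10b. How any of these follow the macrophage markers was not tested. A second Tnfrsf1b probe set gave 0.10 and was not called, the mean of the probe sets gave 0.36 and was not called, and without CNOT3KO mouse 1 the value was 0.55 and not called. Cd40, through which T cells activate antigen-presenting cells, averaged 128 ± 11.0 in CNOT3KO mice and 72.4 ± 15.8 in WT mice (log2 0.67 ± 0.20, adjusted p = 0.0226). Its other probe sets gave 0.23 each with no call, and the mean of the probe sets gave 0.38 with no call. The Cd40 call was also lost without WT mouse 3 (0.53), CNOT3KO mouse 1 (0.65) or CNOT3KO mouse 2 (0.64). Tnfrsf13b, the BAFF and APRIL receptor TACI, averaged 193 ± 22.1 in CNOT3KO mice and 111 ± 41.5 in WT mice (log2 0.72 ± 0.23, adjusted p = 0.0303). That call was lost without WT mouse 1 (0.52), WT mouse 2 (0.69), CNOT3KO mouse 1 (0.70) or CNOT3KO mouse 2 (0.66). With no filter on dim genes it was lost too (limma adjusted p = 0.0618). Of 5 B cell markers tested, 2 (Cd79b and Ms4a1) were called lower and none higher. Every CNOT3KO mouse was below every WT mouse for 3 of them and above for 1, Cd22 (0.61, limma adjusted p = 0.0977). Sums over all 6 measured B cell markers, 1 of them too dim to test, were 369 to 420 in CNOT3KO mice and 344 to 761 in WT mice. The part of B cells was not tested.

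Other receptors of this kind were not called. Tnfrsf11a, the RANKL receptor RANK, read 126, 165 and 156 in CNOT3KO mice, against 67.5, 82.2 and 132 in WT mice (log2 0.59, limma adjusted p = 0.0645). The groups overlapped through WT mouse 3, without which it was called at 0.82, and a second probe set was called at 0.67. Ltbr, the lymphotoxin beta receptor, read 1235, 1294 and 1181 in CNOT3KO mice, against 1394, 1525 and 1366 in WT mice, all lower but not called (-0.20, interval -0.43 to 0.02); centred on the median it was called at -0.30 (adjusted p = 0.0407). Tnfrsf8, the activation receptor CD30, gave -0.71 (adjusted p = 0.0945), and -0.94 with a call without CNOT3KO mouse 2. Tnfrsf4, the T cell costimulator OX40, read 253 to 259 in CNOT3KO mice and 204 to 331 in WT mice (log2 0.02, adjusted p = 0.93). Tnfrsf18 gave -0.01 and Tnfrsf17 0.35. Cd27, Tnfrsf9, Tnfrsf13c, Tnfrsf14 and Tnfrsf19 were too dim to test.

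**Figure D2:**
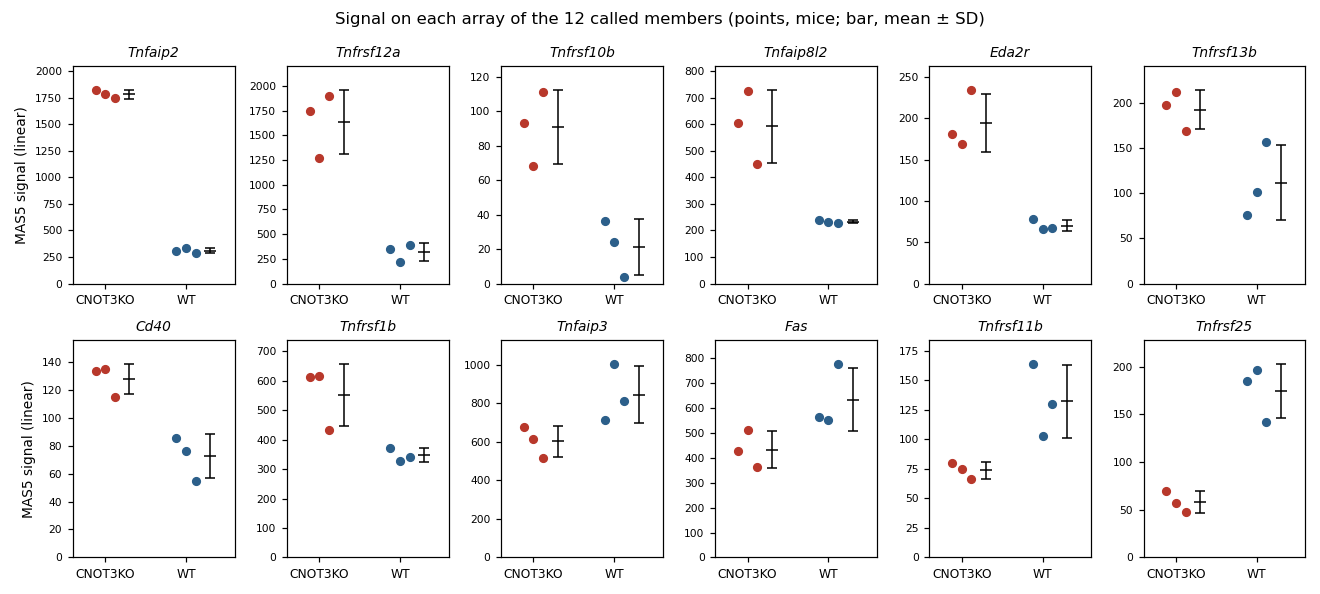
MAS5 signal on a linear axis for the 12 called members, CNOT3KO left of WT, with points for mice and bars for mean ± SD (n = 3 each). The groups do not overlap for any of the 12, and the widest separations are those of Tnfaip2 and Tnfrsf12a.

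Of the death domain receptors 5 of 6 were tested, with 1 higher and 2 lower in CNOT3KO, where all genes tested gave 23.2% and 16.9%. Tnfrsf10b, the TRAIL receptor, read 93.3, 68.4 and 111 in CNOT3KO mice, against 36.0, 23.9 and 3.78 in WT mice. Its WT mean of 21.2 was under the filter level of 51.6, so its 2.70-fold difference (log2 1.43 ± 0.33, limma adjusted p = 0.00689) rests on dim WT signals. That log2 difference ranged from 0.71 to 2.46 with the setting. A second Tnfrsf10b probe set, too dim to test, gave 0.75, with means of 69.5 in CNOT3KO mice and 31.0 in WT mice. Tnfrsf25, the receptor DR3 of T and innate lymphoid cells, read 70.0, 56.9 and 47.1 in CNOT3KO mice, against 185, 196 and 142 in WT mice. No mice overlapped, and the fall was to 0.409 of the WT level (log2 -1.29 ± 0.20, adjusted p = 0.000936). Of 5 T cell markers tested, 1 (Il7r) was higher and none lower.

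Fas, the receptor that Fasl triggers to kill cells, read 425, 511 and 362 in CNOT3KO mice, against 565, 553 and 778 in WT mice (log2 -0.52 ± 0.17, limma adjusted p = 0.0356). The call was lost without WT mouse 3 (-0.37), CNOT3KO mouse 1 (-0.51) or CNOT3KO mouse 3 (-0.40). By limma it was also lost with no filter (adjusted p = 0.0609) and with eBayes without trend (adjusted p = 0.0527). Tnfrsf1a, the main TNF receptor of most cells, read 3245, 3168 and 3961 in CNOT3KO mice, against 3532, 3682 and 3943 in WT mice. The groups overlapped, with a log2 difference of -0.11 and an interval of -0.37 to 0.15 (adjusted p = 0.477). Tnfrsf21, the receptor DR6, read 457, 481 and 329 in CNOT3KO mice, against 311, 333 and 312 in WT mice (0.37, adjusted p = 0.0907), and it was called at 0.53 without CNOT3KO mouse 3. Ngfr, the neurotrophin receptor, was too dim to test.

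Of the decoy receptors, Tnfrsf11b, or osteoprotegerin, which traps RANKL, read 80.0, 75.0 and 66.3 in CNOT3KO mice, against 164, 103 and 130 in WT mice (log2 -0.67 ± 0.20, limma adjusted p = 0.0265). No mice overlapped, but the call was lost on leaving out WT mouse 1 (-0.52), WT mouse 3 (-0.67), CNOT3KO mouse 1 (-0.72), CNOT3KO mouse 2 (-0.68) or CNOT3KO mouse 3 (-0.61). The neighbouring mouse genes Tnfrsf22 and Tnfrsf23, decoys for TRAIL, are near copies, so signal between them may be shared, which was not tested. Probe sets naming more than 1 gene were not used. Tnfrsf22 gave 0.35 (adjusted p = 0.244), with 0.99 and a call from a second probe set. Tnfrsf23 read 41.8, 52.96 and 76.9 in CNOT3KO mice, against 3.77, 24.8 and 2.11 in WT mice, with a mean over all mice under the filter; with no filter it was the 1 further member called (adjusted p = 0.0123).

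All 6 TRAF adaptors were tested by limma and none was called, against 40.1% of all genes tested. The unadjusted limma p was under 0.05 for 1, Traf5. Traf2, which recruits ubiquitin ligases to TNF receptors, read 283, 281 and 268 in CNOT3KO mice, against 219, 198 and 289 in WT mice (log2 0.23, interval -0.12 to 0.59). Traf6, the ubiquitin ligase shared by CD40, RANK and Toll-like receptors, read 255, 346 and 392 in CNOT3KO mice, against 245, 466 and 585 in WT mice. Its difference of -0.30 had an interval of -0.93 to 0.32, another probe set was called lower at -0.72 (limma adjusted p = 0.0298), one more gave 0.25, and without WT mouse 1 the first was called at -0.65. Traf1, itself an NF-kB target, averaged 77.4 ± 9.61 in CNOT3KO mice and 67.1 ± 8.33 in WT mice (SD, n = 3 each). Traf5 was higher in every CNOT3KO mouse (0.37, adjusted p = 0.0904), Traf7 lower in every one (-0.22, adjusted p = 0.157), and Traf4 gave 0.19 with overlap.

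The genes with Tnfaip symbols, TNF-induced proteins and relatives of unlike function, were all tested, with 2 higher and 1 lower. Thus 42.9% were called, against 40.1% of all genes tested. Tnfaip8l1 and Tnfaip8l2 are named for likeness to Tnfaip8, not for induction by TNF. Tnfaip2, a protein of membrane protrusions and vesicle traffic, read 1827, 1784 and 1744 in CNOT3KO mice, against 311, 331 and 289 in WT mice. The mice of each group lay close together, at 1785 ± 41.5 in CNOT3KO mice and 310 ± 20.9 in WT mice (SD, n = 3 each). The 5.44-fold difference (log2 2.44 ± 0.11, limma adjusted p = 2.01e-06) was the largest among tested members, and a second probe set gave 2.10 and was called. Averaged over every Tnfaip2 probe set, including 1 too dim to test, the value was 1.43, still called, and the other alternatives gave 2.10 to 2.52. Tnfaip8l2, or TIPE2, a restraint on immune receptor signalling, read 605, 724 and 448 in CNOT3KO mice, against 238, 233 and 228 in WT mice (log2 1.24 ± 0.17, 2.36-fold, adjusted p = 0.000466). CNOT3KO mouse 3 was the lowest of its group, still above all WT mice.

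Tnfaip3, or A20, a ubiquitin-editing enzyme that ends NF-kB signalling, fell to 679, 612 and 515 in CNOT3KO mice, against 714, 1006 and 813 in WT mice (log2 -0.47 ± 0.15, limma adjusted p = 0.0362). No mice overlapped, though the call was lost without WT mouse 2 (-0.34), WT mouse 3 (-0.49), CNOT3KO mouse 2 (-0.48) or CNOT3KO mouse 3 (-0.36). By limma it was also lost with no filter (adjusted p = 0.0573) and with eBayes without trend (adjusted p = 0.0555). Tnfaip6, or TSG-6, a hyaluronan-binding protein, read 302, 187 and 104 in CNOT3KO mice, against 97.9, 104 and 79.9 in WT mice. CNOT3KO mouse 3 overlapped the WT mice (0.82, adjusted p = 0.0552), and without that mouse the value was 1.17 and called. Tnfaip8 was higher in every CNOT3KO mouse and Tnfaip8l1 lower in every one without a call (0.20 and -0.30), and Tnfaip1 gave 0.01.

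Promoter windows of Tnfaip2, the largest increase, and Tnfaip3, which fell and is known as an NF-kB target, are shown from the same source with the same limits. Tnfaip2 lies on the plus strand at chr12:111442411-111442710 and Tnfaip3 on the minus strand at chr10:19015361-19015660. Capitals mark matches to the 4 motifs.
Tnfaip2: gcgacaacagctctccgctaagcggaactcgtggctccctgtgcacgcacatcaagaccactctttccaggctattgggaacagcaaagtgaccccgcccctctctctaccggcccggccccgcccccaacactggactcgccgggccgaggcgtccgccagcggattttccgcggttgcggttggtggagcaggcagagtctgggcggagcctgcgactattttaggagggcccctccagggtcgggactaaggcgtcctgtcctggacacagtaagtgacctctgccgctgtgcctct
Tnfaip3: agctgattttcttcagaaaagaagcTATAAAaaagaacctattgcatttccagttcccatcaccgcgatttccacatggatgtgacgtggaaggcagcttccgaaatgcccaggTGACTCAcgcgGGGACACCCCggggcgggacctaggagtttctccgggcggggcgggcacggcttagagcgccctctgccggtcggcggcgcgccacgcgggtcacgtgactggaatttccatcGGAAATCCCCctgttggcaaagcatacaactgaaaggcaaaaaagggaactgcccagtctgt
The Tnfaip2 window held none of the 4 motifs, and this window of Tnfaip3 held TATAAA, the AP-1 letters and 2 NF-kB matches, none overlapping another. A second Tnfaip3 window in RefSeq, at chr10:19011914-19012213, held none. RefSeq windows were matched for 42 of the 50 members, 47 windows in all. The NF-kB consensus lay in 5 of these, those of Ltb, Tnfaip3, Tnfaip8l1, Tnfrsf8 and Tnfrsf9, and in 4.505% of all windows. The AP-1 letters lay in 8 windows of 7 genes, against 7.81% of all windows. The p53 half-site lay in 5 windows of 4 genes, against 8.36% of all windows. The Tnfsf13b windows overlap, and the same AP-1 and p53 matches count in each. Windows of called members held the AP-1 letters in 2, the p53 half-site in 1 and the NF-kB consensus in 1. Median GC was 56.7% in member windows and 52.7% in all.

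**Figure D3:**
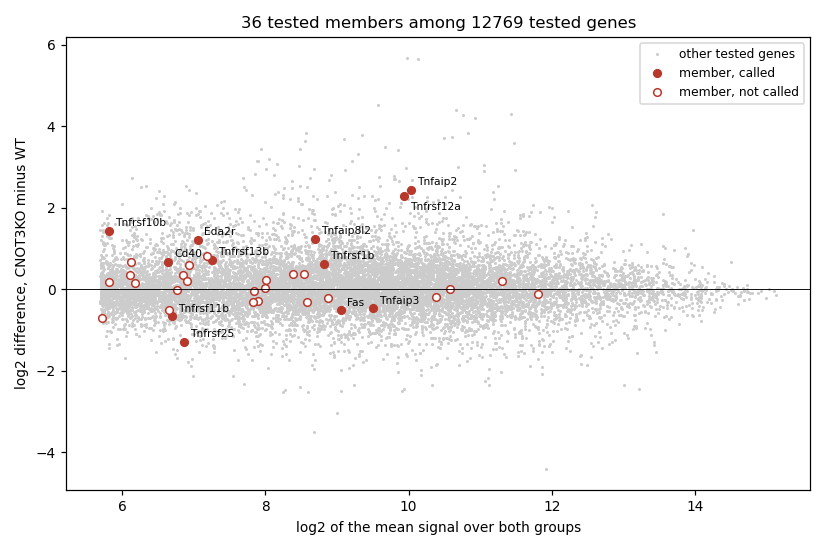
Log2 difference, CNOT3KO minus WT, against the log2 mean signal for the 12769 tested genes, with the members marked. Members lie across the range of mean signal, with Tnfaip2 at 2.44 and Tnfrsf12a at 2.29 the highest and Tnfrsf25 at -1.29 the lowest of them.

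Probe sets of the same gene were compared for the 14 members with several bright enough to test, 32 probe sets in all. In 10 members they shared a sign, in 7 they differed in call, and in none were they called in opposite directions.

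**Figure D4:**
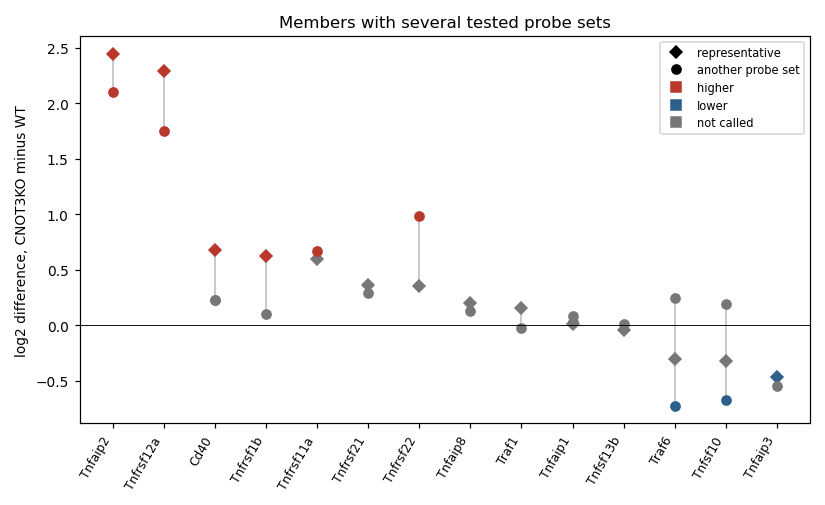
Log2 difference, CNOT3KO minus WT, of each tested probe set for the 14 members with several (diamond, the brightest; circles, the others). Every plotted probe set of Tnfaip2 and Tnfrsf12a was called higher, while for Cd40, Tnfrsf1b, Tnfrsf11a, Tnfrsf22, Tnfsf10, Traf6 and Tnfaip3 the probe sets differed in call.

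The genes around the receptors were read from lists. Of 26 genes of the receptor signalling complex and death machinery, 8 were higher and 5 lower (30.8% and 19.2%, against 23.2% and 16.9% of all genes tested), with a median of 0.18. Ripk1, Tnip3 and Map2k7 of this list are not analysed here. Mlkl, the executioner of necroptosis, read 583, 688 and 663 in CNOT3KO mice, against 347, 276 and 326 in WT mice (log2 0.98, limma adjusted p = 0.000434). Tnip2, an A20 partner, and Casp8, the initiator caspase, were higher at 0.81 and 0.77. Cflar, the caspase-8 inhibitor c-FLIP, averaged 774 ± 118 in CNOT3KO mice and 1432 ± 127 in WT mice (SD, n = 3 each; log2 -0.88, adjusted p = 0.000799). Rbck1 (-0.63), a subunit of the linear ubiquitin ligase, was lower too, as were Map3k7 (-0.46), the kinase TAK1, and the inhibitor-of-apoptosis genes Xiap (-0.45) and Birc2 (-0.33). Without WT mouse 1, WT mouse 2 or CNOT3KO mouse 3, 3 of the list were lower, Map3k7 (-0.44, -0.44 and -0.34) and Birc2 (-0.32, -0.28 and -0.26) losing their calls. Birc2 also lost it without CNOT3KO mouse 1 (-0.37) or CNOT3KO mouse 2 (-0.37), with no filter and with eBayes without trend. With the mean of all probe sets, Xiap gave -0.19 and Map3k7 -0.16, neither called. Also higher were Ripk3 (0.74), which activates Mlkl, the kinase Map3k5 (0.71), the adaptor Fadd (0.58) and Daxx (0.43). Sharpin, another subunit of the linear ubiquitin ligase, was higher at 0.44, unlike Rbck1, and the inhibitor-of-apoptosis gene Birc3 gave 0.47 without a call (adjusted p = 0.0705). Sharpin lost its call without WT mouse 1 (0.38), WT mouse 3 (0.41), CNOT3KO mouse 1 (0.49) or CNOT3KO mouse 3 (0.31). The Sharpin call was also lost with arrays centred on their medians (0.34) and with eBayes without trend. Daxx lost its call without CNOT3KO mouse 1 (0.42), and Fadd with the mean of all probe sets (0.14). The adaptor Tradd gave 0.38 (adjusted p = 0.0533).

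Of 15 tested NF-kB factors, inhibitors and kinases, 6 were higher and none lower by limma. Thus 40% were called, against 40.1% of all genes tested, of which 23.2% were higher and 16.9% lower. The median was 0.46, and 2 were lower at an unadjusted limma p under 0.05. Over the settings 4 to 8 were higher, the fewest with the 60th percentile filter, and 0 to 2 lower. Nfkb1 and Chuk of this list are not analysed here. Ikbke, an IkB kinase relative, averaged 449 ± 64.5 in CNOT3KO mice and 176 ± 2.20 in WT mice (SD, n = 3 each; log2 1.24, limma adjusted p = 0.000188). The IkB family genes Bcl3 (1.16), Nfkbid (0.71) and Nfkbib (0.58) were higher, while Rela, the p65 subunit, gave 0.06 and Nfkbia, the classical inhibitor, -0.37, neither called. Bcl3 lost its call without CNOT3KO mouse 1 (0.94), and Nfkbid without WT mouse 2 (0.60), CNOT3KO mouse 2 (0.59) or CNOT3KO mouse 3 (0.72). Nfkbib gave 0.35 and no call with cross-hybridising probe sets avoided. Of 18 tested NF-kB target genes, 8 were higher and 1 lower (44.4% and 5.56%, against 23.2% and 16.9% of all genes tested), with a median of 0.48. Without CNOT3KO mouse 1, 5 were higher, where 17.2% of all genes tested in that fit were higher. Bcl2a1b and C3 of this list are not analysed here. The acute phase genes Saa3 (2.71) and Lcn2 (2.64) and the chemokines Ccl2 (1.94) and Cxcl2 (1.47) led, and Mmp9, a matrix protease, was lower at 47.7 ± 28.6 in CNOT3KO mice and 145 ± 67.0 in WT mice (log2 -1.27, adjusted p = 0.018), a call lost without WT mouse 1 (-0.96) or CNOT3KO mouse 3 (-0.95). The part of the macrophage marker difference in these changes was not tested.

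Of 7 genes of TNF processing, Timp3, the inhibitor of the TNF-shedding protease, averaged 2049 ± 257 in CNOT3KO mice and 5543 ± 1300 in WT mice (SD, n = 3 each; log2 -1.40, limma adjusted p = 0.000273). Adam17, that protease, was higher by 0.35 (adjusted p = 0.0322). Its call was lost with arrays centred on their medians (0.26) and with the mean of all probe sets (0.30). It was also lost without WT mouse 2 (0.38), WT mouse 3 (0.31) or CNOT3KO mouse 1 (0.28). Of the superfamily genes outside the symbol rule, 3 were tested and none was called, against 40.1% of all genes tested.

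**Figure D5:**
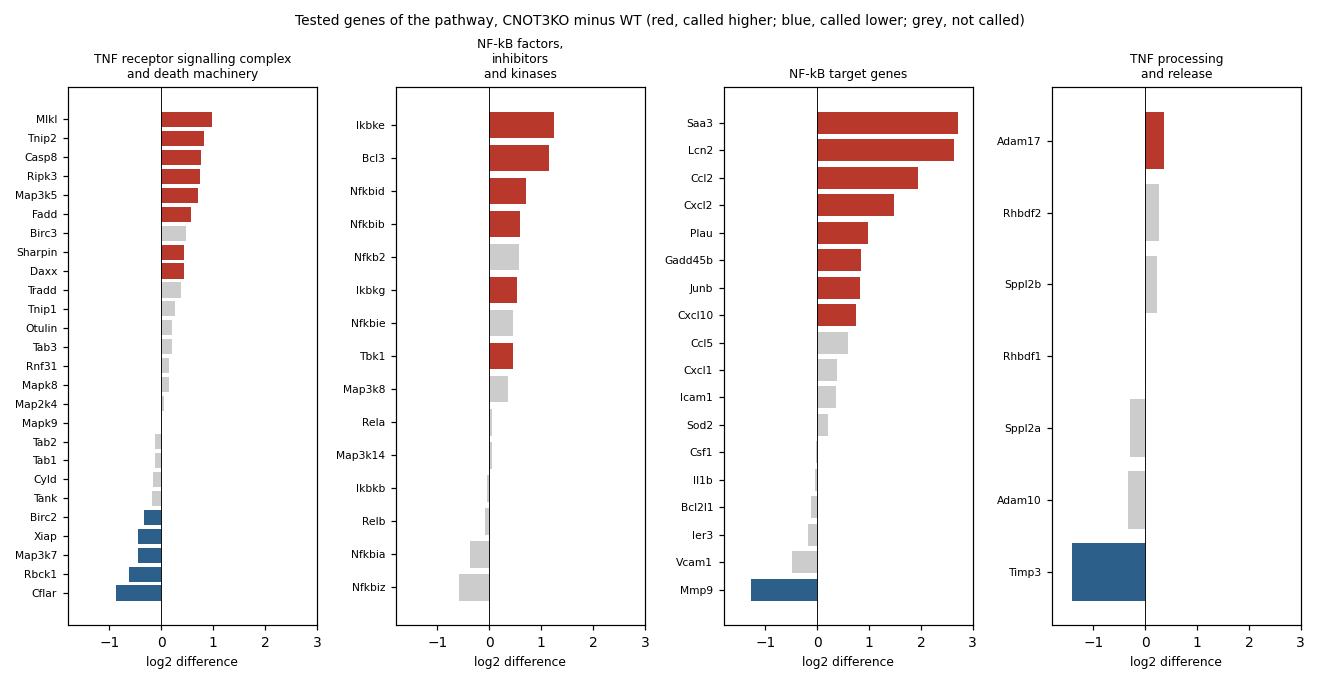
Log2 difference, CNOT3KO minus WT, of each tested gene (1 bar) in 4 pathway lists (1 panel each), with red called higher, blue called lower and grey not called. The NF-kB target list runs from Mmp9 at -1.27 to Saa3 at 2.71, and the TNF processing list holds Timp3 at -1.40.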

How the data were processed

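RNA of epididymal white adipose tissue from 3 CNOT3KO and 3 WT mice was labelled with biotin from total RNA and read on 1 Affymetrix array per mouse, per the labels' protocols. The deposited intensities are linear MAS5 signals, per the submitters' processing notes; the software version is not given in the sources used here. Array medians ranged from 82.1 to 92.9, and trimmed means differed by 0.0711%, so the arrays had been scaled before deposit. Of 45037 probe sets, 34945 named 1 gene in the platform annotation, 932 several and 9160 none. Each gene took its probe set with the highest mean over the 6 arrays. Signals were taken as log2(signal + 22.5), with the 25th percentile of the deposited values added, and genes with a mean under the 40th percentile of probe sets (51.6) were not tested. The 12769 others were fitted with limma 3.58.1 in R 4.3.3 (lmFit, eBayes with trend, two-sided, Benjamini-Hochberg adjustment), which was tested on simulated data. The number of arrays limits the precision: the median standard error was 0.149 on the log2 scale. Members and lists were chosen with earlier results of these data known. Every called member is named, with central ligands, receptors and adaptors whatever their result, the brightest of each class, and of each list up to 4 called genes with the largest change, or all where 5 or fewer were called in that direction. Ripk3, Map3k5, Fadd, Daxx, Sharpin and Birc3 were added after their values were seen. Alternatives varied the offset, filter, scaling, probe set choice, limma settings, replicate block and mice included.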

Additional observations from a re-analysis of the deposited data

How the results depend on the processing

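Of the 12 called members, 6 kept their call under every alternative in which they were tested: Eda2r, Tnfaip2, Tnfaip8l2, Tnfrsf10b, Tnfrsf12a and Tnfrsf25. Eda2r, Tnfrsf10b and Tnfrsf25 were not tested with the 60th percentile filter, nor Tnfrsf10b with cross-hybridising probe sets avoided. None of the 12 called members crossed 0 under the alternatives. Of the members without a call, 12 did so under at least 1, 6 of them tested and 6 too dim. The members called lower in CNOT3KO numbered 4, against 2 with no filter, 2 with the 60th percentile filter, 2 with eBayes without trend and 7 with array weights. Those called higher numbered 8, against 4 with the 60th percentile filter and 13 with array weights. Of all genes tested 2156 were lower, against 1952 with no filter, 1988 with the 60th percentile filter and 2023 with eBayes without trend. Array weights gave 2932 lower. Higher genes numbered 2959, against 2606 with the 60th percentile filter and 3683 with array weights. The genes tested were 12769, but 18193 with no filter and 9978 with the 60th percentile filter. Leaving out 1 mouse in turn gave 5 to 10 members higher and 1 to 5 lower, and 3820 to 4636 genes called, against 5115 with all mice. With every probe set tested singly, a setting chosen after seeing the data, 8180 of 22861 probe sets were called, and 10 members had a probe set called higher and 6 one called lower. Of the 24 members tested without a call, 12 gained one under at least 1 alternative. With the 60th percentile filter, the 6 called members still tested all kept their calls and no other member was called. The lower counts there thus came from called members that were no longer tested. For the other settings the cause was not tested.

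The labels number the mice 1 to 3 in each group. Same-numbered mice deviated from their group means with correlations of 0.074, 0.109 and 0.043, and each mouse correlated best with its own number. Deviations from a group mean are not independent and the correlations are small, so they cannot show whether the numbers pair mice. The labels do not say. With the replicate block, 9 members were higher and 3 lower and 5092 genes were called; the call of Fas was lost (adjusted p = 0.0639) and Tnfaip6 gained one (adjusted p = 0.0313), by limma. Dim signals left 14 members untested.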
